A study of Mus musculus with 6 samples.

Results

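The genes that encode the proteins of the cytosolic ribosome were followed across sorted mouse bone marrow cells with endogenous or overexpressed microRNA-125a (miR-125a). They were chosen by name and gene type alone. A row of the count table was a member if its symbol had the form Rpl or Rps followed by a number, with an optional letter and digit, or was Rplp0, Rplp1, Rplp2 or Rpsa, and if its annotated type was protein coding. This gave 83 genes among 55450 rows, 51 for the large subunit and 32 for the small subunit. A filter on low counts kept 66 of the 83 for testing (36 large and 30 small subunit genes), among 10808 genes tested in all.

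Donor haematopoietic stem cells of the LSK/SLAM phenotype either overexpressed miR-125a or, in the control group, kept endogenous expression, and were transplanted into lethally irradiated recipients. Each library was prepared from 2000 lineage-negative, Sca-1-positive cells sorted 12 weeks later, with the strain given as C57BL6/SJL, by a low-input kit that amplifies cDNA from sorted cells. The labels list 6 libraries, 3 per group, and 4 of them are in the count table: replicates 1 and 3 of the endogenous group and replicates 2 and 3 of the overexpressed group. Sample titles carry the letters EV for the endogenous group, which the labels do not spell out, and 125a for the overexpressed group. They are called endogenous 1, endogenous 3, overexpressed 2 and overexpressed 3, and the other 2 libraries were not analysed here. The labels give no age, promoter or batch, and leave unsaid whether each library had its own recipient. The p-values reflect the spread among these 4 libraries alone, and that spread may be technical.

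The cytosolic ribosome joins a small subunit, which binds the mRNA and decodes it, to a large subunit, which forms the peptide bond. Each subunit is a ribosomal RNA scaffold with one copy of nearly every ribosomal protein, so the proteins are needed in matched amounts and their mRNAs are usually among the most abundant of a cell. The mRNAs are short and most start with a run of pyrimidines (a 5′ terminal oligopyrimidine tract), through which growth signals adjust their translation. Blood formation is known to be sensitive to a shortage of single ribosomal proteins, as in Diamond-Blackfan anaemia. MicroRNAs lower the output of mRNAs that pair with their seed, bases 2 to 8 of the mature strand.

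The libraries held between 654126 and 737431 counts. The share of mitochondrially encoded genes was 0.558% in overexpressed 3 and between 4.14% and 6.29% in the other 3 libraries. The row of Mir125a (mm10 chromosome 17, 17830812 to 17830879) had a single count, 1, in overexpressed 3 and 0 elsewhere, and such a short RNA is not what this kind of library captures, so the labels could not be checked by it. Ly6a, which encodes the Sca-1 antigen used in the sort, had 1, 0, 1 and 1 counts in the order endogenous 1 and 3, then overexpressed 2 and 3, and Procr, a stem cell surface marker, had 1 in each. Of the 11 stem and progenitor markers listed, 5 passed the low-count filter, among them Cd34 (32, 26, 58 and 38 counts) and Flt3 (56, 37, 242 and 33). Kit (4, 25, 9 and 5), Slamf1 (8, 7, 3 and 6), Cd48 (4, 13, 7 and 4) and Hlf (8, 16, 5 and 10) did not pass it. Ly6a and Procr were the 2 with 3 counts or fewer in every library.

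Ribosomal protein genes held a small share of each library, and the share separated the libraries but not the groups. Endogenous 1 gave them 0.361% of its counts (95% exact binomial interval 0.347 to 0.376) and endogenous 3 gave 0.519% (0.502 to 0.536). Overexpressed 2 gave 0.517% (0.500 to 0.533), whereas overexpressed 3 gave 0.220% (0.2095 to 0.231). Endogenous 3 and overexpressed 2 had nearly the same share, endogenous 1 was lower and overexpressed 3 lowest, so the ranges of the groups overlapped. The intervals cover counting error only, since amplified reads without molecular identifiers are not independent molecules. In the large subunit, the shares were 0.208% and 0.268% in endogenous 1 and 3 and 0.218% and 0.128% in overexpressed 2 and 3. Small subunit shares were 0.154% and 0.251% against 0.298% and 0.0927%. The ratio of the mean share, overexpressed over endogenous, was 0.837. It was 0.500 without overexpressed 2, 1.17 without overexpressed 3 and 1.02 without endogenous 3, so its direction depended on single libraries. In bulk samples like these, fewer cells of a type and less RNA per cell cannot be told apart.

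**Figure D1:**
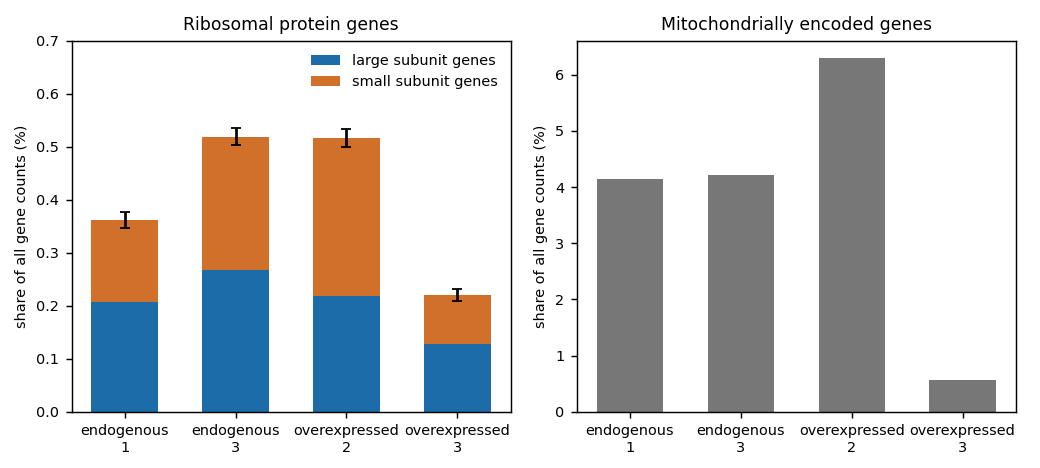
Left, share of all gene counts (%) held by large (blue) and small (orange) subunit genes in each library, with 95% exact binomial intervals on the sum. Right, the share held by mitochondrially encoded genes. Overexpressed 3 has the lowest bar in both panels (0.220% and 0.558%), and the overexpressed bars lie on both sides of the lower endogenous bar.

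The balance between the subunits also differed from library to library. Small subunit genes made up 42.6% and 48.3% of ribosomal protein counts in endogenous 1 and 3, 57.8% in overexpressed 2 and 42.1% in overexpressed 3. The replicates of the overexpressed group thus stood at opposite ends. In the libraries with the lowest shares, few genes carried the counts: the 5 members with the most counts held 45.3% in endogenous 1 and 50.3% in overexpressed 3, against 30.8% in endogenous 3 and 27.6% in overexpressed 2. The median member had 9 counts in endogenous 1 and 8 in overexpressed 3, and 29 in each of the other libraries. Members at 0 numbered 7, 2, 2 and 7 in endogenous 1 and 3 and overexpressed 2 and 3.

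Replicates of a group differed widely in these genes. Of the 66 tested members, 39 (59.1%) had their lowest level, in CPM, the counts scaled to a common library size, in overexpressed 3, where 23.8% of all tested genes did, and 41 (62.1%) had their highest level in overexpressed 2, where 28.8% of all tested genes did. The median absolute difference in log2 CPM between overexpressed 2 and 3 was 1.85 over the members and 0.58 over all tested genes, and 59 of 66 members were lower in overexpressed 3. Between the endogenous libraries the median absolute difference was 1.01 over the members and 0.52 over all tested genes. By this difference the nearest pair was endogenous 3 and overexpressed 2, from different groups, at 0.78. By Pearson correlation of log2 CPM across the 66 members, the endogenous pair was nearest instead (0.58). Endogenous 3 with overexpressed 2 had 0.45, and the overexpressed pair 0.23. The mitochondrially encoded share was lowest in overexpressed 3 too (0.558%). It was 4.14% in endogenous 1, 4.22% in endogenous 3 and 6.29% in overexpressed 2. Its part in the ribosomal protein levels was not tested.

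**Figure D2:**
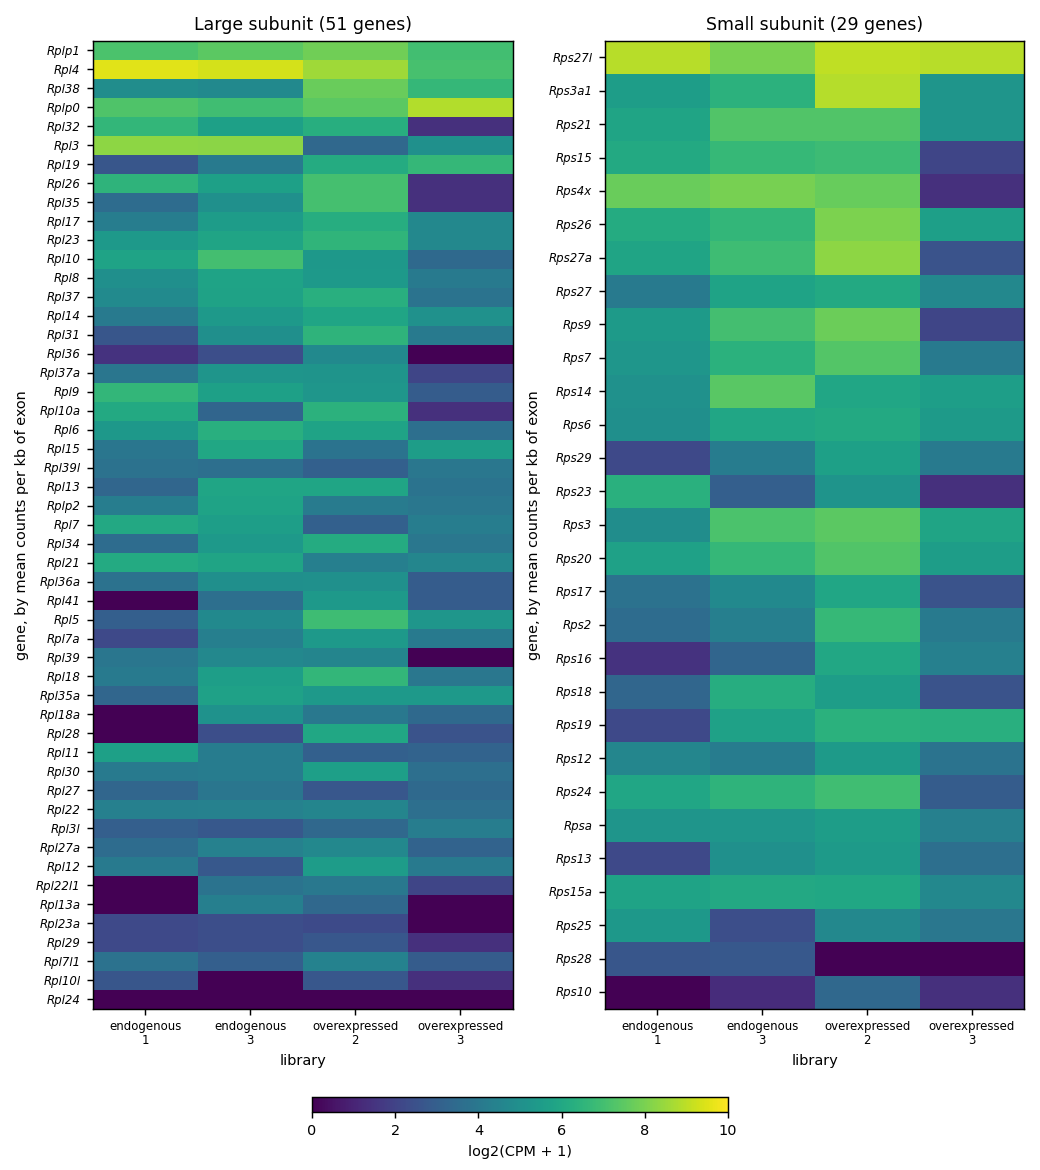
Level of 80 of the 83 genes in each library as log2(CPM + 1), with CPM on effective library sizes, ordered by mean counts per kb of exon within the large subunit (left, 51 genes) and the small subunit (right, 29 genes). Most rows are brightest in overexpressed 2 and darkest in overexpressed 3, while Rplp0 and Rpl19 are brightest in overexpressed 3.

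Most members were detected, many at a level near the background of the table. Per length, the median member held 9.15 counts per kb of merged exon (mean of the 4 libraries), against 1.89 for the median protein-coding gene. As a background, 1988 chemosensory receptor genes (olfactory, vomeronasal and trace-amine types) had a 95th percentile of 8.53 counts per kb. Of the 83 members, 45 lay above it (22 of 51 large and 23 of 32 small subunit genes), as did 9.02% of 21951 protein-coding genes. With the length of the longest coding transcript in place of all annotated exons, 62 of 83 lay above the matching background of 11.1 counts per kb. Small subunit genes had a median of 16.1 counts per kb and large subunit genes 7.82.

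The densest member was Rps27l, a p53-inducible paralog of Rps27, at 313 counts per kb. It was followed by Rplp1 (199.9), a protein of the acidic stalk that recruits translation factors, and Rpl4 (145), a core protein of the large subunit that lines the exit tunnel. Rpl38 (95.5), Rps3a1 (92.6), Rplp0 (82.6), Rps21 (75), Rps15 (68.3) and Rps4x (61.2) came next. At the other end, Rpl24 had 0 counts in each of the 4 libraries, which allows up to 3 counts in each. On effective library sizes, 3 counts were 5.35 CPM in endogenous 1 and, at the most, 5.60 CPM in overexpressed 2. Rpl24 shares 484 bp of exon with Gm28037 on the same strand, so reads of the shared part cannot be assigned to one of them.

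The comparison of overexpressed with endogenous libraries asked which transcripts differ when miR-125a is raised, and none of the 66 tested members passed it. With edgeR's quasi-likelihood test and Benjamini-Hochberg adjustment, 0 of 66 members and 0 of 10808 genes (0%) had an adjusted p under 0.05. At an unadjusted p under 0.05 there were 9 members, 4 higher and 5 lower with overexpression, where 566 of all tested genes (5.24%) were called, 230 higher (2.13%) and 336 lower (3.11%). DESeq2 gave an adjusted p for 39 of the 66 members and 4103 of the 10808 genes, and left the others, Rps16 among them, without one. Of these it called 3 of 39 members (2 higher, 1 lower) and 3.68% of genes (1.39% higher, 2.29% lower). Without the low-count filter edgeR called 4 of 82 members (Rpl28, Rps16 and Rpl19 higher, Rpl3 lower), with 1.78% of all genes called (0.709% higher, 1.07% lower). Member folds lay on both sides of 0, with 37 higher and 29 lower and a median log2 fold of 0.19 (quartiles -0.70 and 0.76), against -0.01 over all tested genes. The large subunit had 19 higher and 17 lower (median 0.04) and the small subunit 18 higher and 12 lower (median 0.37). The member median was -1.20 without overexpressed 2, -0.17 without endogenous 1, -0.16 without normalization factors and -0.25 with limma-voom, so its sign changed with the libraries and the scaling used. Both libraries of one group lay above both of the other for 6 members on the higher side and 10 on the lower side, and for 15.2% and 18% of all tested genes.

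**Figure D3:**
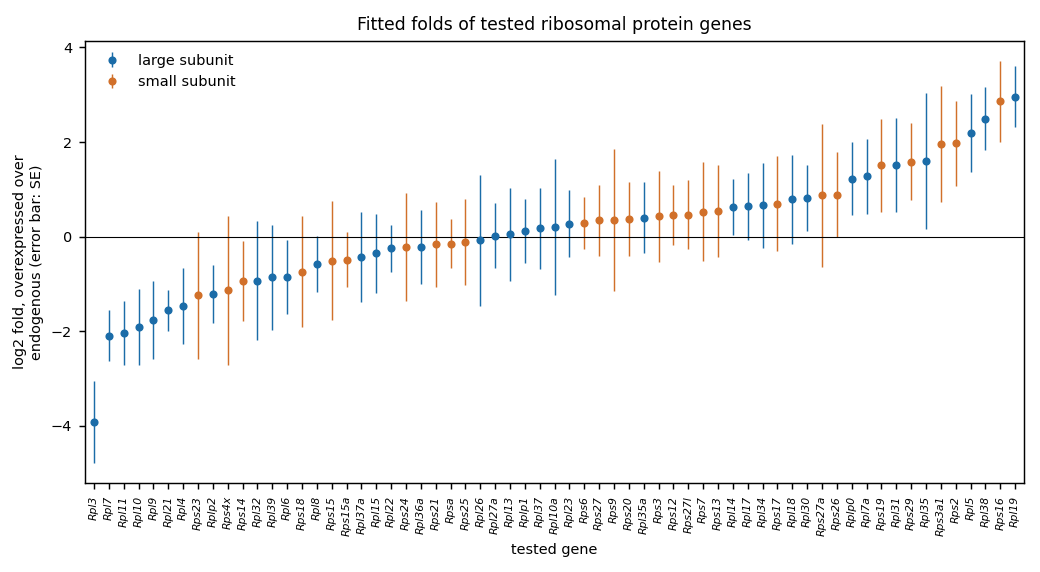
Fitted log2 fold, overexpressed over endogenous, of 63 of the 66 tested genes, ordered by fold, with the SE of the fit as bars. Blue points are large subunit and orange points small subunit genes. Folds run from -3.92 (Rpl3) to 2.96 (Rpl19), and genes of both subunits lie on both sides of 0.

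Among large subunit genes, Rpl3 had the most separated counts on the lower side. It lies on chromosome 15 (mm10, 80077791 to 80091868), encodes a core protein near the peptidyl transferase centre, and had 178 and 210 counts in endogenous 1 and 3 against 5 and 19 in overexpressed 2 and 3. The mean was 309.8 ± 10.5 CPM (SD, n = 2) in endogenous and 20.2 ± 15.4 CPM in overexpressed libraries, groups that do not overlap. The log2 fold was -3.92 ± 0.87 (SE), with an adjusted p = 0.845 by edgeR's quasi-likelihood test. DESeq2 called this gene (log2 fold -3.90, adjusted p = 0.000144), and 93 bp of its exons are shared with the small RNA gene Gm22077 on the same strand. In the authors' deposited table it was also called, with a log2 fold of 3.90 and FDR 0.0345. That table called 3 of 73 members, with 2.37% of its 17039 rows called. The deposited folds have the opposite direction, endogenous over overexpressed, as the counts of all 404 called genes there show.

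The large subunit gene Rpl7 was lower too, at 36 and 33 counts against 4 and 11 (log2 fold -2.09 ± 0.54). Rpl21 had 38 and 39 against 10 and 14 (-1.56 ± 0.44). These counts do not overlap between the groups, and edgeR gave an adjusted p of 0.845 for both. The 15 pseudogene rows named after Rpl21 had 25 and 29 counts against 23 and 19, and reads can be split between such rows. Rpl4 had the most counts of any member in the endogenous libraries, 421 and 460, against 202 and 82 (-1.47 ± 0.81, adjusted p = 0.845 by edgeR), again without overlap. It shares 158 bp of exon with Snord16a and Gm22455 on the same strand. Because the groups do not overlap for these 4 genes, leaving out 1 library could hardly change the sign of their log2 folds. The folds then ran from -5.02 to -3.31 for Rpl3 and from -2.87 to -1.62 for Rpl7. They ran from -1.72 to -1.39 for Rpl21 and from -2.39 to -0.91 for Rpl4.

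On the higher side, Rpl19 came first. It lies on chromosome 11 (98026710 to 98030492), encodes a large subunit protein that reaches across to the small subunit, and had 3 and 11 counts in endogenous 1 and 3 against 38 and 61 in overexpressed 2 and 3. Its means were 10.6 ± 7.42 and 85.4 ± 20.5 CPM (SD, n = 2), without overlap. The log2 fold was 2.96 ± 0.64, with an adjusted p = 0.825 by edgeR's quasi-likelihood test. DESeq2 called it (3.01, adjusted p = 0.00439), as did the authors' deposited table (log2 fold -2.99 as endogenous over overexpressed, FDR 0.0199). The 10 pseudogene rows named after Rpl19 had 21 and 22 counts against 9 and 19, more than its own row in the endogenous libraries. Reads can be split between such rows, so the size of its fold is uncertain. Rpl19 also shares 116 bp of exon with Gm11629 and Gm27597 on the same strand. Rpl38 (chromosome 11, 114668524 to 114672331), known for skeletal patterning defects in mutant mice, had 16 and 18 counts against 112 and 61 (2.50 ± 0.66). It was also called by DESeq2 (2.53, adjusted p = 0.0134) and not by edgeR's quasi-likelihood test (adjusted p = 0.845). Overexpressed 3, low for most members, was thus above both endogenous libraries for Rpl19 and Rpl38.

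Of the small subunit genes, Rps16 (chromosome 7, 28350652 to 28353155), whose tail contacts the tRNA in the P site, had 1 and 6 counts against 34 and 12 (2.86 ± 0.85, adjusted p = 0.845 by edgeR). In the authors' deposited table it was called with a log2 fold of -2.89 (endogenous over overexpressed) and FDR 0.00871. Rps2, at the mRNA entry channel, had 6 and 13 against 55 and 10 (1.97 ± 0.90), so only overexpressed 2 lay above both endogenous libraries. Without that library the log2 fold of Rps2 was 0.13. The 11 pseudogene rows named after Rps2 had 14 and 14 counts against 22 and 18, and reads can be split between such rows. Rps2 also shares 148 bp of exon with Snora64 and Snhg9.

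**Figure D4:**
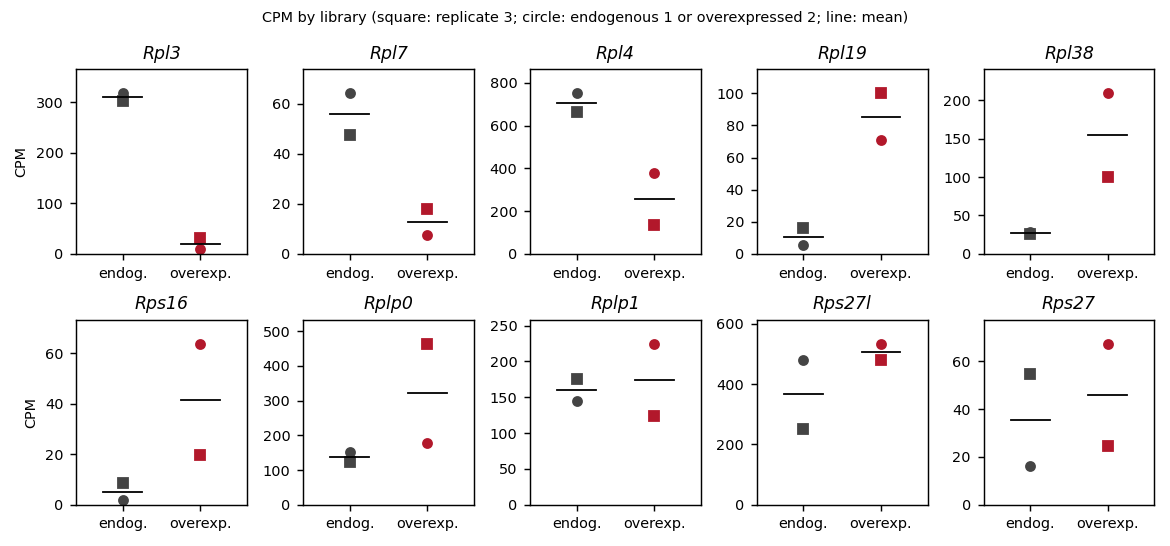
CPM on effective library sizes of 10 ribosomal protein genes in the endogenous (grey) and overexpressed (red) libraries, with circles for endogenous 1 and overexpressed 2, squares for replicate 3 of each group and lines for group means. The linear axes start at 0 and differ between panels. Rpl3, Rpl7 and Rpl4 lie higher in both endogenous libraries, and Rpl19, Rpl38 and Rps16 in both overexpressed libraries, while Rplp1 and Rps27 overlap.

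The P stalk holds Rplp0 as its base and pairs of Rplp1 and Rplp2, and none of the 3 genes passed the test. Rplp0 had 85 and 85 counts in endogenous 1 and 3 against 96 and 282 in overexpressed 2 and 3 (1.23 ± 0.77, adjusted p = 0.855 by edgeR), and was highest in the library where most members were lowest. Rplp1 had 81 and 122 against 120 and 76 (0.12 ± 0.67), with overlapping groups, and its fold was -0.21 without normalization factors. Rplp2 had 10 and 38 against 9 and 9 (-1.22 ± 0.62, adjusted p = 0.845 by edgeR). No difference between the 3 folds was tested.

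Rpl5 and Rpl11 bind 5S ribosomal RNA together and, when free of the ribosome, inhibit Mdm2, the ubiquitin ligase of p53. Their counts lay in opposite directions. Rpl5 had 4 and 18 counts against 63 and 23 (2.19 ± 0.83), and Rpl11 had 28 and 12 against 4 and 5 (-2.04 ± 0.68), both with an adjusted p of 0.845 by edgeR. Rpl5 shares 1047 bp of exon with Fam69a on the opposite strand and with Snord21, and whether counting used the strand is not stated, so its reads cannot all be assigned to it. Mdm2 had 15 and 17 counts against 11 and 10 (-0.47 ± 0.41) and its relative Mdm4 29 and 54 against 16 and 25 (-0.87 ± 0.49). Neither passed the test.

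Rps27l, the densest member, had 270 and 174 counts against 285 and 293 (0.47 ± 0.72, adjusted p = 0.973 by edgeR). Its paralog Rps27 had 9 and 38 against 36 and 15, and the groups overlapped for this gene. The pseudogene Rps27-ps1 had 40 and 0 against 0 and 1. Reads can be split between such rows, so the level of Rps27 in endogenous 1 is uncertain. Of the other paralogs, which in mouse are often tissue restricted, Rpl3l had 4 and 4 against 5 and 11, Rpl7l1 7 and 5 against 11 and 4, and Rpl39l 7 and 8 against 4 and 9. Rpl10l, a testis paralog, had 3 and 0 against 3 and 1, and Rpl22l1 0 and 9 against 8 and 2, below the filter. None of these paralogs exceeded 11 counts in any library.

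Several abundant small subunit genes were nearly missing from overexpressed 3 while present in overexpressed 2. Rps4x, an X-linked gene, had 117 and 171 counts in endogenous 1 and 3, 110 in overexpressed 2 and 1 in overexpressed 3. Rps15 had 37 and 71 against 62 and 2. Rps27a, which is made as a fusion with ubiquitin, had 32 and 81 against 169 and 3. For these 3, overexpressed 2 was close to or above the endogenous libraries and overexpressed 3 far below them. The large subunit gene Rpl32 gave the same picture, with 55 and 35 against 41 and 1. Rps27a was chosen for this account after its values were seen.

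Other members also differed between the libraries of a group. Rps3a1 had 26 and 59 counts in endogenous 1 and 3, 255 in overexpressed 2 and 22 in overexpressed 3 (1.96 ± 1.22), and its log2 fold was -0.87 without overexpressed 2. Rps21 had 32 and 107 against 82 and 22 (-0.16), with overlap. Rps19, the gene most often mutated in Diamond-Blackfan anaemia, had 2 and 36 counts against 44 and 48. Of the 20 members listed as Diamond-Blackfan genes, 17 were tested, 11 were higher and 6 lower (median log2 fold 0.52) and 0 passed.

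Some members below the filter had few counts in one group. Rpl28 had 0 and 3 counts in the endogenous libraries and 33 and 3 in the overexpressed libraries, a ratio of 13.1 by effective library size (95% exact interval 4.15 to 66.7, counting error only). All but 3 of its overexpressed counts came from overexpressed 2. The 4 pseudogene rows named after Rpl28 had 12 and 22 counts against 3 and 3, the opposite direction. Reads can be split between such rows, so the size of the Rpl28 ratio is uncertain. Rpl28 also shares 183 bp of exon with Ube2s on the opposite strand. Rps28 had 3 and 4 against 0 and 0. Rpl13a had 0 and 13 against 5 and 0, while its pseudogene Rpl13a-ps1 had 106 and 40 against 118 and 29. Reads of near-identical copies can be split between such rows, so the level of Rpl13a is uncertain.

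The features of the genes themselves bear on how they can be counted. Of the 83 members, 38 share exon sequence with another annotated gene, 27 on the same strand (many of these small nucleolar RNAs hosted in their introns or exons) and 19 on the opposite strand. Ribosomal protein pseudogenes make up 307 rows, 298 of them named after 60 of the members, and the 307 rows held 0.0891% and 0.0719% of counts in endogenous 1 and 3 against 0.0721% and 0.0589% in overexpressed 2 and 3. Members with no exon overlap had a median log2 fold of 0.17, near the 0.19 of all tested members.

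Pairing with miR-125a was rare in the annotated 3′ ends. The mature strand is printed from RefSeq (GRCm38.p6, chr17:17830817-17830840, plus strand), with its seed in capitals.
mmu-miR-125a-5p: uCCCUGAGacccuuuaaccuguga

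The letters that pair with the seed, CTCAGGG, were searched on the sense strand of the longest 3′ UTR of each gene. They were present in 3 of 83 members (3.61%) and in 1531 of 8704 tested genes with a 3′ UTR (17.6%). Member 3′ UTRs are short, with a median of 173 bases against 1625.5 in tested genes. The 3 sites are shown with flanking bases and the match in capitals, since they are the only members with a match.
Rps3 (mm10, match at chr7:99477937-99477943, minus strand): ctggcctctgcCTCAGGGtattatgaataa
Rps7 (mm10, match at chr12:28631051-28631057, minus strand): cttgtcaaaatCTCAGGGccatgggtgcac
Rps15a (mm10, match at chr7:118109057-118109063, minus strand): tgtggactgtgCTCAGGGtcagtccttttg

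Rps3, at the mRNA entry of the small subunit, had 16 and 100 counts in endogenous 1 and 3 against 95 and 34 in overexpressed 2 and 3 (0.43 ± 0.97). Rps7, which can also bind Mdm2, had 21 and 58 against 85 and 10 (0.52 ± 1.05). Rps15a had 31 and 45 against 33 and 15 (-0.48 ± 0.58). None of the 3 genes passed the test, and their groups overlapped. A match is a description and not a shown target site.

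Promoters of these genes share short motifs that the choice of members did not use. RefSeq promoter sequence (GRCm38.p6, 250 bases before to 50 after the start) matched 63 of the 83 members. The letters CCGGAAG, as bound by ETS family factors, were found on either strand in 26 of 63 (41.3%), against 9.93% of 27025 genes of the same window length and 14.1% of tested genes. A run of at least 7 pyrimidines that opens with C within 5 bases of the start, as in a terminal oligopyrimidine tract, was present in 23 of 63 (36.5%), against 7.64% of all genes and 8.20% of tested genes. Both subunits held CCGGAAG at similar rates, in 38.5% of large and 45.8% of small subunit promoters. Windows from 100 bases before to 20 after the start are shown for 4 genes that differ in which motif they hold, with matches in capitals.
Rps27 (GRCm38.p6, chr3:90213629-90213748, minus strand): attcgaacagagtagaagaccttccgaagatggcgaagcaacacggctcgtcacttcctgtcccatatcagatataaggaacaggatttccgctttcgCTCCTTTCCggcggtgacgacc
Rps27l (GRCm38.p6, chr9:66945986-66946105, plus strand): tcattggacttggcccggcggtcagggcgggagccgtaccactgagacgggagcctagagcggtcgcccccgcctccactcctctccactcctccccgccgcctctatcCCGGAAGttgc
Rpl38 (GRCm38.p6, chr11:114668480-114668599, plus strand): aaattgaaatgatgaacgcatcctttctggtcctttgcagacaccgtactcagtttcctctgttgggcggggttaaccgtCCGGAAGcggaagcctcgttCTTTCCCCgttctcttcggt
Rps16 (GRCm38.p6, chr7:28350589-28350708, plus strand): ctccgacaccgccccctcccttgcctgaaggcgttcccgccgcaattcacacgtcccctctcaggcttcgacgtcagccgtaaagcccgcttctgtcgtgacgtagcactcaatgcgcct

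Rpl38 holds both motifs, Rps27 only the pyrimidine run and its paralog Rps27l only CCGGAAG. Rps16 has neither of these in the window. Rpl38 and Rps16, with both and neither, were higher in both overexpressed libraries. The median log2 fold was 0.17 for 23 tested members with CCGGAAG and 0.27 for 27 without, and 0.35 for 19 with the pyrimidine run and 0.05 for 31 without. These differences were not tested.

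Proteins that act with the ribosome were followed through lists. Rack1, a scaffold on the head of the small subunit that lies outside the naming rule, had 69 and 419 counts in endogenous 1 and 3 against 5 and 4 in overexpressed 2 and 3 (-5.48 ± 1.13). It was not called (adjusted p = 0.814 by edgeR), although its groups do not overlap. Fau, which encodes the small subunit protein eS30 fused to a ubiquitin-like protein, had 3 and 12 against 26 and 6 (1.28 ± 0.88). In the 5 partner genes outside the rule, 3 were tested and 0 passed.

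Of 6 elongation factors listed, 4 were tested, with 1 higher, 3 lower, a median log2 fold of -1.32 and 0 passing. Eef1g, a subunit of the exchange factor of eEF1A, had 77 and 200 against 7 and 9 (-3.91 ± 0.75, adjusted p = 0.814 by edgeR). Eef1a1, which delivers aminoacyl-tRNA, had 20 and 108 against 6 and 17 (-2.28 ± 0.88). Both genes were lower in both overexpressed libraries than in either endogenous library. Initiation factors, with 18 of 29 tested, were balanced at 10 higher and 8 lower (median 0.04), and 0 passed. Eif3h, a subunit of the eIF3 complex, had 35 and 16 against 8 and 8 (-1.58 ± 0.60), and Eif3a, its largest subunit, 7 and 410 against 5 and 16 (-4.06 ± 1.72), where endogenous 3 alone was high.

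Ribosome biogenesis genes had 23 of 57 tested, 6 higher and 17 lower, with a median of -0.40 and 0 passing. Nop10, a core protein of H/ACA ribonucleoproteins that modify ribosomal RNA, had 29 and 43 against 4 and 2 (-3.38 ± 0.53, adjusted p = 0.814 by edgeR). Emg1, a methyltransferase of small subunit ribosomal RNA, had 13 and 333 against 4 and 4 (-5.13 ± 1.54), a value set mainly by endogenous 3. Of RNA polymerase I genes, which transcribe the ribosomal RNA precursor, 6 of 11 were tested, 4 higher and 2 lower, and 0 passed. Ubtf, an activator of that polymerase, had 94 and 127 against 353 and 191 (1.47 ± 0.74), without overlap.

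Of 7 regulators of ribosomal protein mRNA translation, 5 were tested, 2 higher and 3 lower, and 0 passed. Larp1, which binds the terminal oligopyrimidine tract, had 38 and 33 against 108 and 34 (1.16 ± 0.78), so overexpressed 3 was close to the endogenous libraries. Gas5, a snoRNA host transcript that carries such a tract, had 7 and 31 against 38 and 0. It was missing from overexpressed 3, where Rps4x was nearly missing, but unlike Rps4x it was also low in endogenous 1. In all, 3 of 7 snoRNA hosts were tested and 0 passed.

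For comparison, the mitochondrial ribosome, which is built of separate nuclear-encoded proteins, had 20 of 78 genes tested, 11 higher and 9 lower (median 0.07). None passed. At an unadjusted p under 0.05 by edgeR there were 6 of the 20 (3 higher and 3 lower), where 5.24% of all tested genes were called. Mrpl42 had 64 and 162 against 3 and 8 (-4.17 ± 0.80, adjusted p = 0.814 by edgeR) and Mrpl32 12 and 22 against 3 and 5 (-1.91 ± 0.53). The cytosolic and mitochondrial sets both had medians near that of all tested genes, and the difference between them was not tested.

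Markers of other marrow cells differed between libraries as well. Erythroid markers (10 genes, with Klf1 and Epor at 3 counts or fewer throughout) held 0.0608% and 0.425% of counts in endogenous 1 and 3 and 0.0494% and 0.0228% in overexpressed 2 and 3. The highest value was in endogenous 3, the library where Rack1, Emg1 and Eif3a were highest, as were 24.7% of all tested genes. A link between these genes and the erythroid markers was not tested. Neutrophil markers (9 genes) held 0.743% and 0.870% against 1.57% and 1.10%, with most of these counts from Ltf, a secondary granule protein (4538 and 3735 against 8490 and 7413 counts). The other 8 neutrophil markers summed to 324 and 2459 against 3109 and 492 counts, so their groups overlapped. B cell markers (6 genes) held 0.0670% and 0.0218% against 0.0226% and 0.0399%, and the stem and progenitor markers 0.0252% and 0.0417% against 0.0549% and 0.0282%. T cell markers held at most 0.00674% in any library and dendritic cell markers 0.0990% to 0.174%. The part of these shares in the ribosomal protein values was not tested.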

How the data were processed

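RNA-seq counts were analysed from 4 of the 6 labelled libraries, matched to samples by the sample numbers in the labels, and the other 2 were not analysed here. The ribosomal protein genes and the gene lists were chosen with earlier results of these data known. The main file, deposited by the authors, gives raw counts for each gene as whole numbers. FastQC 0.11.8, STAR and edgeR 3.24.3 are named with the mm10 build in the submitters' processing notes. Which counter and gene models were used, and whether by strand, is not given in the sources used here. A second deposited table holds log2 folds and mean log2 CPM by edgeR, per the file headers. Unadjusted p-values and FDR values stand in the same deposited table, with a likelihood ratio and a signed score, per the file headers.

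Symbols, positions and exon lengths came from GENCODE vM21 (mm10) and promoters and the mature microRNA from RefSeq. Under R 4.3.3, edgeR 4.0.16 was fitted to the counts (TMM factors, filterByExpr on the groups, quasi-likelihood F test with legacy dispersions), overexpressed over endogenous, 2 libraries against 2, where 3 against 3 are labelled, with Benjamini-Hochberg adjustment over all 10808 tested genes at 0.05. CPM are on effective library sizes, and folds carry their SE. The fit was also run on simulated counts. Changes were placed there only in genes with a higher mean count than many members have, so that run does not cover members with few counts. DESeq2 1.42.0 and limma 3.58.1 were alternatives, with no low-count filter, other scalings and each library left out. The genes named were the 5 of smallest p in each direction, the 5 densest of each subunit, and stalk, 5S and paralog members. From each list the 2 of smallest p were taken, but Taf1c, Snhg8, Eif4ebp2, Rpl15-ps1 and Rpl6l are not described. Some members that entered the fits and counts are not reported here by name or drawn. Others (Rps27a, Rps19, Rpl28, Rps28, Rpl13a, Rpl24 and the genes with seed or promoter matches) were chosen after their values were seen. Likeness of patterns between members is not given, since 4 libraries are too few for it.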

Additional observations from a re-analysis of the deposited data

How the results depend on the processing

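The count of genes called at adjusted p under 0.05 was 0 with edgeR's quasi-likelihood test, 151 with DESeq2 and 822 of 46089 (1.78%) without the low-count filter. Of the members, 3 of the 39 with an adjusted p were called by DESeq2 and 4 of 82 without the filter (Rpl28, Rps16, Rpl19 and Rpl3), and 0 by limma-voom. Leaving out 1 library gave member medians of log2 fold from -1.20 (without overexpressed 2) to 0.75, large subunit medians from -1.34 to 0.54 and small subunit medians from -1.0 to 1.05. The ratio of the mean share ran from 0.500 to 1.17. Without normalization factors the median of all genes shifted to -0.29 and that of the members to -0.16 (large -0.34, small -0.03), and Rplp1 turned to -0.21. With limma-voom the member median was -0.25. At the 99th percentile of the receptor genes 15 members lay above background. Leaving out 1 library turned the fold of Rplp1 (-0.36 to 0.48), Rpl32 (-5.33 to 0.048), Rps3a1 (-0.87 to 2.85), Rps21 (-1.55 to 0.73) and Rps15 (-4.60 to 0.46). Rpl3, Rpl7, Rpl21, Rpl11, Rpl4, Rplp2, Rps4x, Rpl19, Rpl38, Rps16, Rpl5, Rplp0, Rps2 and Rps27l kept their direction in every such fit. Except for Rps2 and Rps27l, their groups do not overlap, which nearly fixes the direction in advance, so this adds no support. No paired analysis was possible because the groups in the table share only 1 replicate number. Density of exons by coding transcript and members without exon overlap were alternatives chosen after seeing the data. The median member had 8 to 29 counts in a library, which limits the precision of single folds.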
